A study of Mus musculus with 2 samples.

Results

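The clustered protocadherin genes form 3 neighbouring arrays, alpha, beta and gamma, on mouse chromosome 18. They were taken as the protein-coding RefSeq genes of this chromosome whose symbol starts with Pcdha, Pcdhb or Pcdhg followed by a digit, a letter and a digit, or c and a digit. This rule found 57 genes among 21887 protein-coding genes on chromosomes 1 to 19, X and Y. The binding of RUNX2, the Runt-family factor needed for osteoblast differentiation, was profiled there by CUT&Tag, in which an antibody brings the transposase Tn5 to the bound sites and the enzyme cuts the DNA. The cells were MC3T3-E1, an osteoblast precursor line from mouse, left untreated, and the series holds 1 group of 2 replicate libraries without a control library. The deposited lists give the position and width of 26853 peaks in replicate 1 and 27287 peaks in replicate 2, without heights, so read depth is unknown and the identity of the cells could not be checked from expression.

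Each member of the alpha and gamma arrays has its own variable exon with its own promoter, which is spliced to constant exons shared by the array, while a beta gene is a single exon. The proteins are cell-surface adhesion molecules that bind copies of themselves on neighbouring cells. In neurons, which switch on only some members in each cell, they give cells a surface identity by which a neuron's branches avoid each other. CTCF and cohesin take part in the choice of promoter. The c-type members at the high end of the alpha and gamma arrays are switched on more uniformly, and Pcdhgc3 is known for wide expression outside the nervous system.

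The gene spans of the annotation follow this layout. The alpha array ran from 36930285 to 37188897 (GRCm38), the beta array from 37264998 to 37521419 and the gamma array from 37661775 to 37841873, with 14, 22 and 21 members. The high ends of the 14 alpha genes lay within 1240 bp of each other and those of the 21 gamma genes within 10 bp, so these spans are nested and differ in the low-coordinate end. This low end was used as the start of every member. For the beta genes, which span 2.34 to 5.27 kb each, the same direction was taken from general knowledge of the locus, since the annotation used gives no strand. By class there were 12 alpha, 22 beta, 12 gamma A, 6 gamma B and 5 c-type genes, the c-type being Pcdhac1, Pcdhac2, Pcdhgc3, Pcdhgc4 and Pcdhgc5.

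RUNX2 peaks at the arrays lay mostly in the gamma array and its flanks. Within the arrays and 50 kb beyond their outer ends, 971.234 kb in all, replicate 1 had 8 peaks and replicate 2 had 9 (mean 8.5 ± 0.71, SD, n = 2). Of these, 5 peaks of each replicate overlapped a peak of the other by at least 1 bp and formed 5 shared regions, all in the gamma window. The alpha window held 1 peak of replicate 1 and 2 of replicate 2, none of them shared. The beta window held 0 peaks in either list over 356.422 kb. The gamma window, 280.099 kb long, held 7 peaks in each replicate.

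**Figure D1:**
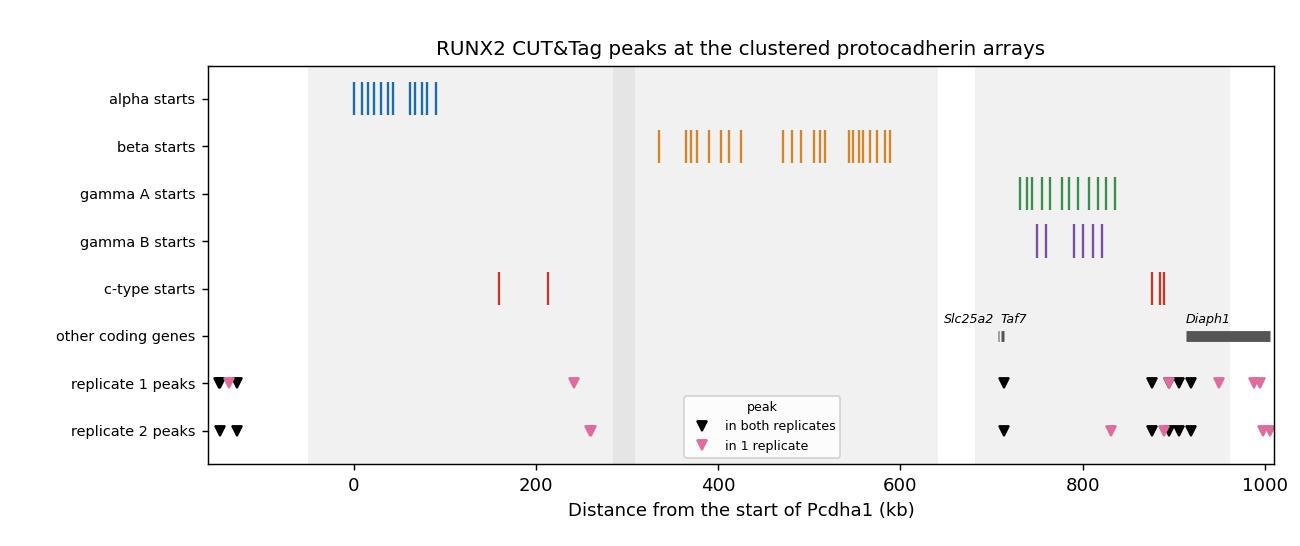
Starts of the 57 members by class, other named coding genes (bars, spans) and RUNX2 peaks of each replicate (triangles, black where the other replicate has an overlapping peak, pink where it has none) against the distance from the start of Pcdha1 in kb; grey bands are the arrays with 50 kb on each side. The beta band holds 0 triangles, and the 5 shared regions all lie in the gamma band.

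Within the gamma array itself the peaks lay almost entirely between the start of Pcdhgc3 and the high end of the array. From the start of Pcdhga1 to 1 kb below that of Pcdhgc3, a stretch of 143.636 kb with all 18 gamma A and gamma B starts, replicate 1 had 0 peaks and replicate 2 had 1. From there to the high end of the array, over 36.463 kb with the 3 gamma c-type genes, each replicate had 4 peaks and 3 regions were shared. The shared regions that begin at 37825145 and 37835807 lay above the start of Pcdhgc5, inside the spans of all 21 gamma genes, so they do not single out the c-type genes. Both lists therefore place most peaks of the array in the same short part of it.

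A shared region covered the start of Pcdhgc3 and of no other member. Pcdhgc3 (gene 93706, chromosome 18, 37806410 to 37841873) encodes a broadly expressed gamma protocadherin whose intracellular part is known to bind the Wnt pathway inhibitor Axin1. The replicate 1 peak ran from 37806303 to 37806782, was 480 bp wide and covered the start. The replicate 2 peak ran from 37806420 to 37806640, was 221 bp wide and began 10 bp above the start. The smaller peak lay wholly inside the larger, and their midpoints were 12.5 bp apart, against a median of 81 bp over the 18517 overlapping pairs of the whole lists. The smaller peak filled 46.0% of the larger, against a median overlap of 67.2% of the wider peak over those pairs. Their widths stood at percentiles 61.9 and 17.3 of the lists of replicates 1 and 2. It was no longer shared when a reciprocal overlap of at least 50% was required, which 73.8% of those pairs met, or when peaks up to the median width of 395 bp were left out. The count of members with a region at their start was then 0, and the share of all coding genes was not counted under either setting.

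Of the 57 members, 1 had a shared region within 1 kb of its start. Among coding genes of other chromosomes with a start in the RefSeq promoter table, 35.1% of 17492 had one. By the low end alone, as used for the members, the share was 17.6% of all 21887 coding genes, and by either end 33.3%. The annotation gives no strand, so the low-end share of coding genes mixes starts with opposite gene ends. No member was added when its high end was counted too. The members' count lies below each of these shares, and the difference was not tested. The lists hold only called peaks, so a start without one may carry signal below the calling limit. How reads that match several places were treated is not given in the sources used here, and the absence of peaks at members that resemble each other in sequence is uncertain for that reason.

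The other gamma c-type genes had no shared region at the start, and 1 of them had a peak of replicate 2. Pcdhgc5 (gene 93708, 37819546 to 37841873) had a replicate 2 peak of 192 bp from 37819051 to 37819242, which ended 304 bp below its start. Replicate 1 had none there, and its nearest peak was 4.82 kb away. Pcdhgc4 (gene 93707, 37815079 to 37841873), which in mice is required for the survival of cortical interneurons, lay 8.30 kb from its nearest shared region, that of Pcdhgc3. With the peaks of a single list, 1 member had a peak within 1 kb of its start in replicate 1 and 2 members had one in replicate 2, against 40% and 40.2% of the coding genes of other chromosomes and 20.2% of all coding genes by the low end in either list.

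Between the start of Pcdhgc5 and the common high end of the gamma genes, 2 further regions were shared. The region nearer to Pcdhgc5 ran from 37825145 to 37825608, 5.60 kb above its start. It was made of a 351 bp peak of replicate 1 and a 252 bp peak of replicate 2, which shared 139 bp. The overlap was 39.6% of the replicate 1 peak, and the midpoints were 162.5 bp apart, against medians of 67.2% of the wider peak and 81 bp over all overlapping pairs. Like the region at Pcdhgc3, it was no longer shared with a reciprocal overlap of at least 50% or with only peaks wider than the median. A peak of replicate 1 alone, 272 bp wide, lay just below it from 37824367 to 37824638. The next region ran from 37835807 to 37836633 and ended 5240 bp below the high end of the array. It was wide in both lists, with 689 bp in replicate 1 and 815 bp in replicate 2, at percentiles 82.8 and 90.5 of the widths of those lists, and the peaks shared 677 bp. The spans of all 21 gamma genes held both regions. The annotation used gives no exons, so constant exons and introns were not told apart, and a noncoding gene, Gm29994 (37827111 to 37830230), lay between the regions.

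The widest region of the windows lay just beyond the gamma array, inside Diaph1. It ran from 37848935 to 37850184 and began 7062 bp above the high end of gamma. Diaph1 (37843601 to 37935622) encodes a formin that nucleates actin filaments. Widths of 859 bp in replicate 1 and 1250 bp in replicate 2 put it at percentiles 92.3 and 98.9 of those lists. It and the region below the gamma high end were the 2 that stayed shared when only peaks wider than the median were used. A narrow peak of replicate 1 alone, 171 bp wide, lay farther inside Diaph1 from 37880204 to 37880374. DNase-sensitive sites that act on the beta genes are known to lie beyond the high end of gamma in mouse; whether these regions coincide with them was not tested.

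**Figure D2:**
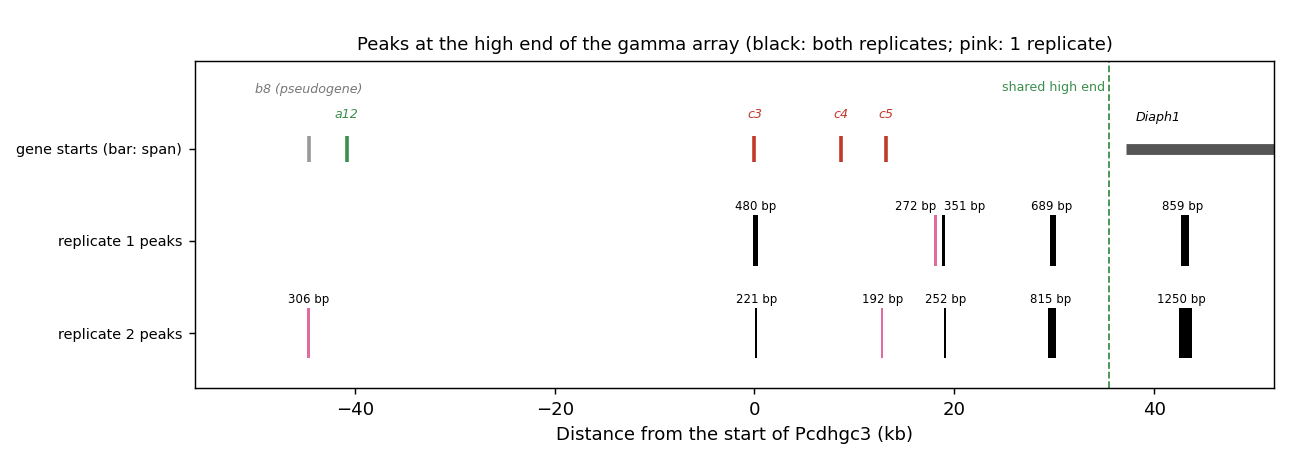
Peaks of both replicates around the gamma c-type genes, drawn to scale with their widths in bp, against the distance from the start of Pcdhgc3 in kb; upper ticks are gene starts (Pcdhg left off the names), the grey bar is part of the span of Diaph1 and the dashed line is the common high end of the gamma genes. The peaks labelled 480 bp and 221 bp lie at the start of Pcdhgc3, and the widest pair, 859 bp and 1250 bp, lies inside Diaph1.

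The gamma A and gamma B genes had no peak within 1 kb of their starts. These are the variable members, of which single neurons switch on a few. Their medians to the nearest shared region were 50.2 kb for the 12 gamma A genes (17.2 to 80.6 kb) and 59.4 kb for the 6 gamma B genes (35.7 to 75.8 kb). The nearest members were Pcdhga1 (gene 93709, start 37661775), 17.2 kb from the region at Taf7, and Pcdhgb1 (gene 93699, start 37680272), 35.7 kb from it. At the upper end of this stretch replicate 2 had a 306 bp peak from 37761587 to 37761892, which covered the low end of Pcdhgb8 (37761801), a transcribed pseudogene that the choice of members leaves out. It lay 3.69 kb from the start of Pcdhga12 (gene 93724, start 37765580). In replicate 1 the peak nearest to the low end of Pcdhgb8 was 44502 bp away.

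All 22 beta genes stood in 1 stretch without a peak of either replicate. It ran from 37190644 to 37644192, a length of 453.549 kb. Pcdhb22 (gene 93893, start 37518353) was the beta gene nearest to a shared region, at 125.84 kb, and Pcdhb1 (gene 93872, start 37264998) the farthest, at 379.195 kb. The median of the 22 was 215.674 kb. With peaks of a single list, the medians were 160.246 kb for replicate 1 and 152.894 kb for replicate 2. The order of these genes by distance only follows their place in the array, since they share the same bordering regions.

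The alpha starts likewise lay in 1 stretch without a peak. It ran from 36802366 to 37172091, a length of 369.726 kb, and held the 12 alpha starts with those of Pcdhac1 and Pcdhac2. Pcdha1 (gene 116731, start 36930285) was the nearest alpha gene to a shared region, at 127.92 kb, and the median of the 12 was 168.353 kb. Pcdhac1 (gene 353236, start 37090136) was 287.771 kb away. Pcdhac2 (gene 353237, start 37143678), which in mice is needed for serotonergic axons to space themselves, was 341.313 kb away. Peaks of single replicates lay closer. Replicate 1 had a 449 bp peak from 37172092 to 37172540, between the start of Pcdhac2 and the common high end of the alpha genes. Replicate 2 had peaks of 186 bp and 174 bp that began 146 bp and 1573 bp above the highest alpha end, that of Pcdha6 (37188897). The other genes of the array end lower, at 37187657 to 37187663. None of the 3 peaks overlapped a peak of the other list, and with peaks within 500 bp counted as shared they remained apart.

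**Figure D3:**
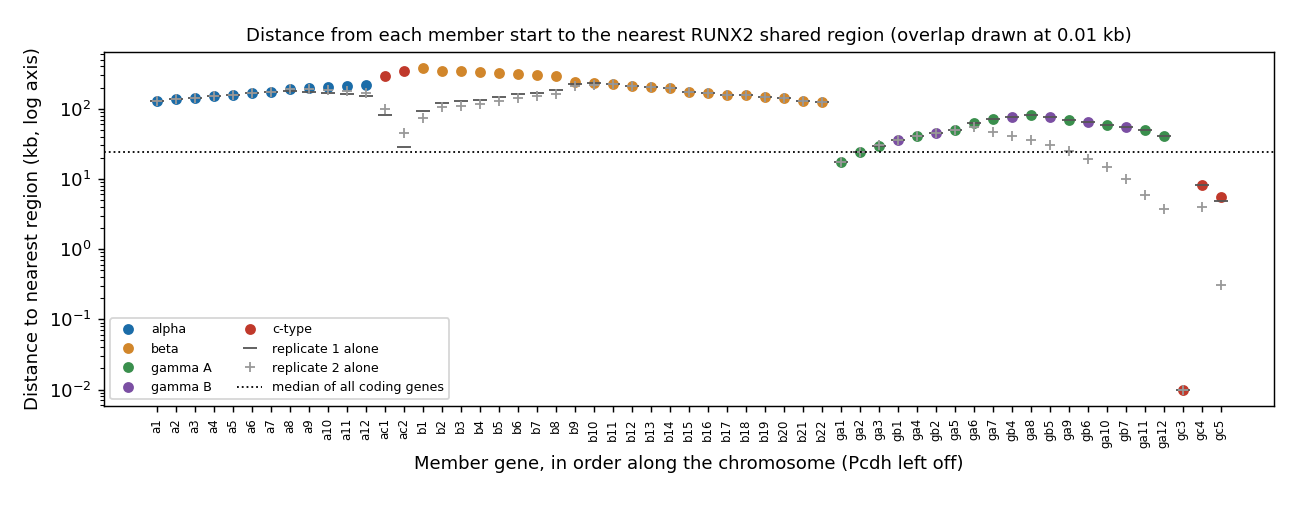
Distance in kb, on a log axis, from the start of each of the 57 members, in order along the chromosome. Circles (by class) give the nearest shared region, dashes the nearest peak of replicate 1 and crosses that of replicate 2. An overlap is drawn at 0.01 kb. The dotted line is the median of all coding genes, measured from their low end, 24.3 kb. Pcdhgc3 is at 0, and the alpha and beta members lie between 126 and 379 kb.

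Stretches of at least these lengths made up 2.43% (beta) and 2.89% (alpha) of all stretches between peaks, and many genes lay in such stretches. In the genome the median stretch between neighbouring peaks of the joined lists was 23.0 kb, and the beta and alpha stretches ranked 865 and 1028 among 35595. On chromosome 18 they ranked 29 and 33 among 1104. Of the 57 members, 36 had their start in a stretch of at least 300 kb, as had 23.1% of all coding genes by their low end. At 400 kb the members' count was 22, since the alpha stretch is shorter, and the share of coding genes 20.4%. Both limits were picked with the stretches already known. The median distance to a shared region was 150.324 kb over the 57 member starts and 24.3 kb over the low ends of all coding genes. Of the members, 53 were farther than this coding-gene median. Within 10 kb of the start there was a shared region for 3 members, all of them gamma c-type genes. By the low end, which is not always the start, 34.6% of coding genes had one. Within 50 kb there was one for 11 members, against 63.7% of coding genes by the low end.

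The way in which regions are given to genes changed the count of members fully. Counting a region inside a gene span or within 10 kb of it linked 21 of the 57 members, against 52.8% of coding genes. A region inside the span alone linked the same number, against 41.4%. These were the 21 gamma genes, with 0 alpha and 0 beta genes. They were linked through the same regions, because their spans are nested. The 3 annotated fusions of alpha and gamma genes, Gm37013, Gm38666 and Gm38667, span the locus and would be linked in the same way, so such a link says nothing about a given promoter.

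Of the other coding genes at the edges of the arrays, Taf7 carried a shared region at an end. The region from 37644193 to 37644562, between beta and gamma, covered the high end of Taf7 (37640491 to 37644204), a gene for a subunit of the general factor TFIID. Its peaks were 370 bp wide (replicate 1) and 218 bp wide (replicate 2), with the same first base. Slc25a2 (37637378 to 37638723), a gene for a mitochondrial ornithine carrier beside Taf7, had its nearest peak 5470 bp from its high end in both lists, and the low end of Diaph1 was 5334 bp from the nearest shared region. Below the alpha array, the nearest shared region lay at the vault RNA gene Vaultrc5 (36801763 to 36802107), with 680 bp in replicate 1 and 702 bp in replicate 2. The nearest coding gene on that side, the splicing factor gene Zmat2 (36793923 to 36799660), had a 254 bp peak of replicate 1 at its low end and none of replicate 2 there. The peaks next beyond the upper limit of the windows were of single replicates, inside Diaph1 or at its high end (37935622). A 268 bp peak of replicate 2, from 37935367 to 37935634, covered that end, and the nearest peak of replicate 1 was 11053 bp from it. The next shared region covered the facing ends of Hdac3 and Rell2, 112801 bp above the gamma high end.

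About as many peaks of the windows were found in both replicates as their widths would give. Of the 8 peaks of replicate 1, 5 were shared (62.5%, 95% exact interval 24.5 to 91.5), against 68.2% of all its peaks (67.7 to 68.8). Of the 9 peaks of replicate 2, 5 were shared (55.6%, 21.2 to 86.3), against 67.2% (66.6 to 67.7). These intervals cover counting error only, and with so few peaks they span most values. Narrow peaks were shared less often in the whole lists. In 5 classes of about equal size by width, the peaks of the windows would give 5.81 shared peaks in replicate 1 and 4.58 in replicate 2 at the rates of the whole lists. Median widths in the windows were 409.5 bp in replicate 1 and 221 bp in replicate 2, and 395 bp in each whole list.

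Set against other arrays of related genes, the protocadherin windows had 5.15 shared regions per Mb, and gamma alone 17.9 against 0 for alpha and beta. Keratin arrays, which like protocadherins are tandem families of tissue-restricted genes, had 7.91 for type I and 8.93 for type II. Hox arrays had 14.6 for Hoxa, 10.95 for Hoxb and 0 for Hoxc and Hoxd. The histone arrays of dividing cells had 7.76 on chromosome 13 and 53.2 on chromosome 3. The share of genes with a shared region within 1 kb of either end also differed between arrays. It was 1.75% of protocadherins, 3.70% of type I and 3.85% of type II keratins, 18.2% of Hoxa genes, 0% of Hoxb, Hoxc and Hoxd genes, and 45.3% and 70.0% of the histone genes of chromosomes 13 and 3. The arrays differ in gene spacing, and no test was made between them.

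**Figure D4:**
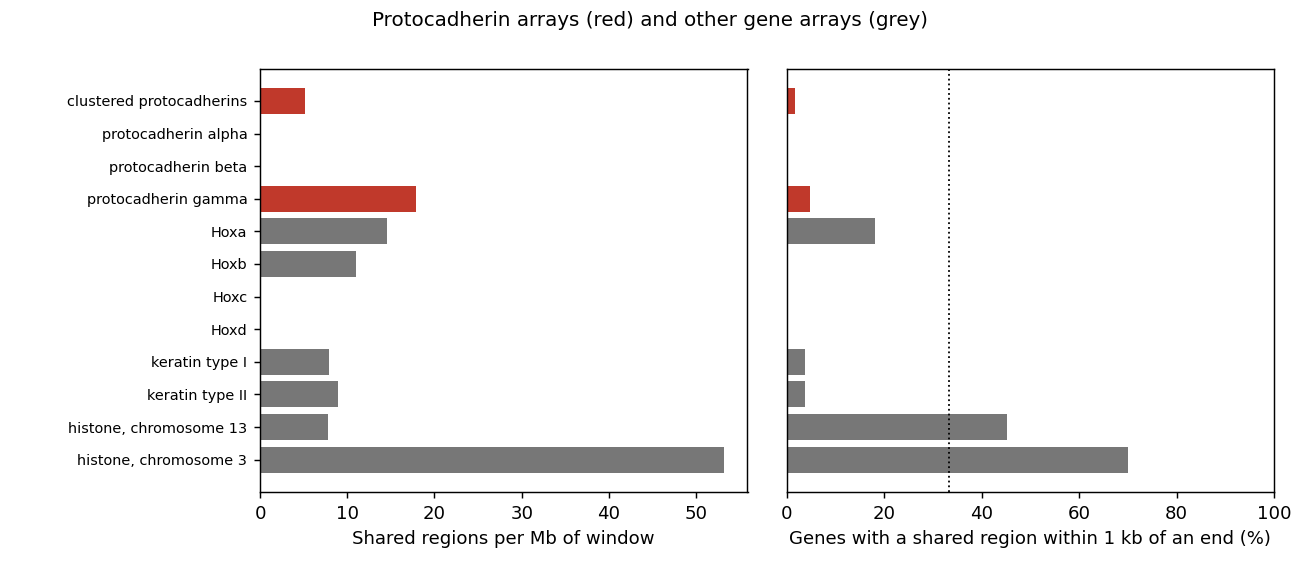
Shared regions per Mb of array with 50 kb on each side (left) and share of genes with a shared region within 1 kb of either end (right, %), for the protocadherin arrays (red) and the Hox, keratin and histone arrays (grey); the dotted line is the share of all coding genes, 33.3%. All protocadherins together stand at 5.15 per Mb and 1.75%, and alpha and beta at 0 in both.

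The windows' 5.15 shared regions per Mb were set beside tiles of the genome. Over 2714 tiles of 1 Mb the median was 5 shared regions (quartiles 0 and 11). The tile that holds the beta and gamma arrays, and the alpha-array starts from Pcdha10 to Pcdhac2, had 55 coding gene starts and 6 shared regions. The tile below it, with 9 alpha starts among 34 coding genes, had 14 shared regions, none of them in the alpha window. Among the 116 tiles with at least 30 coding genes the median was 20 (quartiles 10 and 25.25), and 21 of them, the beta and gamma tile included, had at most 6. The tile with the 9 alpha starts lay within these quartiles. Of the 19 with at most 5, 14 were led by olfactory receptor genes. The limit of 30 genes was set with these values in view.

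Genes related to protocadherins elsewhere were described by the same measure. Of 12 non-clustered protocadherin genes, 2 had a shared region within 1 kb of an end, against 33.3% of coding genes. These were Pcdh18 (413 bp in replicate 1 and 687 bp in replicate 2) and Pcdh1 (527 bp and 528 bp), which lies farther up chromosome 18. Of 19 classical and type II cadherin genes, 0 had one, and 8 had one inside the gene or within 10 kb, against 52.8% of coding genes by that measure. Of 9 FAT, dachsous and CELSR genes, Fat4, which encodes a giant cadherin of planar polarity, was the 1 with a region (809 bp and 323 bp).

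Among 18 genes for factors of protocadherin promoter choice, 5 had a shared region within 1 kb of an end, the same measure against 33.3%. The widest were at Smc1a (974 bp and 932 bp) and Smc3 (806 bp and 654 bp), which encode core cohesin subunits, and at Smchd1 (795 bp and 1001 bp), which encodes a chromatin protein that silences the clustered genes. Ctcf was 17.996 kb from the nearest. Of 12 genes for partners of the intracellular parts, 5 had one. The widest were at Abi1 (772 bp and 831 bp) and Wasf1 (619 bp and 703 bp), which encode parts of the actin-regulating WAVE complex, and at Ptk2 (700 bp and 629 bp), which encodes focal adhesion kinase.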

How the data were processed

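The peak lists of 2 RUNX2 CUT&Tag libraries were used. Per the submitters' processing notes, fastp 0.19.6, Bowtie2 and deepTools were named with build GRCm38 (mm10), without roles. No label names the peak caller, its threshold or a control. The deposited lists have no header, and per their values hold a running number, chromosome, start, end and width in bp. The lists are per replicate, and whether these came from separate cultures is not stated. Depth is unknown.

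Peaks overlapping by at least 1 bp were merged into shared regions (Python 3.11.15, pandas 2.3.3), and the counts equalled those of bedtools 2.31.1. Distances run from a gene end to the nearest edge of a region. Genes came from RefSeq GRCm38.p6 spans, without strand or exons, and starts of 17492 genes from a RefSeq promoter table that was used for other chromosomes. Exact intervals are Clopper-Pearson at 95%, from scipy 1.17.1. No test was made, since the series has 1 group and no control. The distance and overlap steps were tested on simulated data.

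The named genes were members with a shared region or peak within 1 kb of the start, otherwise the nearest member of each class, the coding genes at the array edges, and up to 3 genes with the widest region from each comparison list. Pcdhgc4, Pcdhac1, Pcdhac2, Pcdhb1, Ctcf, Hdac3, Rell2 and the noncoding and fusion genes were added after their values were seen. The members and lists were chosen with earlier results of these data known. Alternatives were a reciprocal overlap, wider peaks only, single replicates, other flanks and other distances.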

Additional observations from a re-analysis of the deposited data

How the results depend on the processing

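The 5 shared regions of the windows became 3 with no flank, 3 with a reciprocal overlap of at least 50% (3.09 per Mb) and 2 with only peaks wider than the median (2.06 per Mb). Counting the peaks of a single replicate gave 8 to 9 (8.24 to 9.27 per Mb). The mean shared part of 59.0% was 35.4% with reciprocal overlap, 75% with wide peaks only and 47.7% with a flank of 100 kb. The 1 member with a shared region within 1 kb of its start became 0 with reciprocal overlap, 0 with wide peaks only and 3 within 10 kb, and single replicates gave 1 to 2. The 36 member starts in long stretches were 22 with a limit of 400 kb and 54 with wide peaks only. Shares of all coding genes were not counted with reciprocal overlap or with wide peaks only. The member counts under these settings therefore cannot be set beside a genome-wide share. Median distances with reciprocal overlap were 66.4 kb for gamma A, 80.0 kb for gamma B and 29.4 kb for c-type genes. With wide peaks only they were 407.288 kb for beta, 124.84 kb for gamma A, 110.134 kb for gamma B and 29.4 kb for c-type genes. With single replicates they ranged from 159.642 to 167.037 kb for alpha, 152.894 to 160.246 kb for beta, 27.3 to 50.2 kb for gamma A, 33.2 to 59.4 kb for gamma B and 3.97 to 8.30 kb for c-type genes. Median peak width was 221 to 409.5 bp with single replicates. Fewer or more peaks enter by construction of these settings. No paired analysis was possible because the series has 1 group. The depth is unknown, so no limit can be set on signal below the calling threshold.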
